A study of Homo sapiens with 32 samples.

Results

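The genes described here encode the nuclear subunits of oxidative phosphorylation, the 5 protein complexes of the mitochondrial inner membrane that oxidise NADH and succinate and make ATP. They were taken from an Illumina bead array by symbol: every probe whose gene symbol began with NDUFA, NDUFB, NDUFC, NDUFS, NDUFV, UQCR, COX4 to COX8 or ATP5, or was SDHA, SDHB, SDHC, SDHD or CYC1. Of 24526 probes, 97 matched, for 84 genes, and 87 of them were detected above the negative control beads on 4 or more arrays. They represent 75 genes among the 12973 tested. Of these, 69 encode structural subunits: 31 of complex I, 4 of complex II, 8 of complex III, 12 of complex IV and 14 of complex V. The other 6 are assembly factors, a pseudogene or genes that only share a symbol, and are given apart. Membership was set by symbol and detection, not by a measured change, but the members were chosen with earlier results of these data known. Detection can itself depend on treatment. COX6B2 passed on 5 arrays, 2 of them with SAHA in HepG2.

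Complexes I and II pass electrons from NADH and succinate to ubiquinone, complex III passes them to cytochrome c, and complex IV passes them to oxygen. Complexes I, III and IV pump protons as they do so, and complex V, the ATP synthase, uses the returning protons to make ATP. The subunits are encoded partly by mitochondrial DNA, which the symbol rule did not cover, and mostly by nuclear genes, whose transcripts are read here. Hepatocytes are rich in mitochondria and use this pathway to fuel gluconeogenesis and urea synthesis.

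The study used Huh7, a human hepatocellular carcinoma line, and HepG2, which the labels give as a hepatoblastoma line. Each line was treated with SAHA (vorinostat, an inhibitor of class I and II histone deacetylases), with DMSO as its vehicle control, or transfected with siRNA against HDAC2, one of the class I enzymes, with scrambled siRNA as its control. That gave 8 groups of 4 arrays each, 32 in all. Neither dose nor duration of SAHA exposure, nor the siRNA's letters, could be taken from the labels. The labels do not say that the replicates were separate cultures, so the p-values measure only the spread between arrays.

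Levels are log2 intensities after background correction and quantile normalization, with an offset of 16 added to the intensity, so that differences of dim genes are understated. A gene is said to have risen or fallen where its adjusted p was under 0.05 in limma, with Benjamini-Hochberg adjustment over all 12973 genes. HDAC2 itself checks the siRNA labels: it stood at 7.87, 7.77, 8.22 and 7.72 on the HepG2 arrays with HDAC2 siRNA, against 10.89, 11.12, 10.79 and 10.97 with scrambled siRNA, which is 12.1% of the control. In Huh7 it stood at 8.82, 8.62, 8.62 and 8.73 with HDAC2 siRNA, against 12.10, 12.06, 12.02 and 12.00 with scrambled siRNA, or 9.82% of the control. All 7 hepatocyte markers looked for were detected on 4 or more arrays, 6 of them on all 32. So were 2 of 3 leukocyte, 3 of 3 fibroblast, 3 of 3 endothelial and 2 of 3 muscle markers, though 0 of these on all 32. Detection of a marker alone therefore does not tell the cell type. Between 48.3% and 54.9% of probes were detected per array. Of the subunits' arrays, replicate 1 of the scrambled siRNA stood highest of its 4 in 38 of 69 genes in Huh7 and in 36 in HepG2, and the counts over all subunits that rest on them are given also without them.

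How many subunits rose or fell depended on the scaling of the arrays. Most subunit transcripts were bright, 55 of the 69 averaging at least 10. The alternative to quantile normalization was to scale each array to one median. Under median scaling the median of all genes moved by −0.17 with SAHA in HepG2 and −0.13 in Huh7, and by 0.04 with HDAC2 siRNA in HepG2 and −0.07 in Huh7 (log2). Of all genes called, 32.3% were then higher with SAHA in HepG2 and 39.2% in Huh7. Of all genes tested, 17.99% then rose and 37.71% fell with SAHA in HepG2, and 23.24% and 36.11% in Huh7. With HDAC2 siRNA 18.45% then rose and 13.58% fell in HepG2, and 20.43% and 22.69% in Huh7. Counts over all subunits, per complex and across comparisons are given under both scalings, those of bright subunits, promoter words and other gene lists under quantile normalization only. Arrays of bulk RNA do not tell fewer expressing cells apart from less RNA per cell.

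SAHA changed 38 of the 69 subunits in HepG2, where 54.5% of all genes tested passed, and 40 in Huh7, where 60.7% did. The HepG2 share, 55.1%, and the Huh7 share, 58%, lie near the background. In HepG2, 15 subunits rose and 23 fell, against 26.9% and 27.6% of all genes, and the median subunit difference was −0.09; under median scaling 6 rose and 34 fell. In Huh7, 20 rose and 20 fell, against 31.6% and 29.1% of all genes, with a median of −0.0017; under median scaling 7 rose and 31 fell. Under that scaling the median subunit difference, taken from the median of all genes, was −0.16 in HepG2 and −0.15 in Huh7.

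HDAC2 siRNA changed 30 subunits in HepG2, 12 up and 18 down, where 36.6% of all genes passed, 18.8% up and 17.9% down; under median scaling 17 rose and 9 fell. In Huh7 it changed 38 subunits, 33 up and 5 down, where 45.3% of all genes passed, 22.9% up and 22.4% down; under median scaling 21 rose and 7 fell. The Huh7 shares of subunits were 47.8% up and 7.25% down, and under median scaling the median subunit lay 0.20 above the median of all genes there and 0.11 above it in HepG2. Among the 55 bright subunits 7 rose and 13 fell with HDAC2 siRNA in HepG2, against 26.8% and 26.4% of the 2272 genes as bright, and 32 rose and 3 fell in Huh7, against 30.8% and 33.1%. With SAHA 11 of the bright subunits rose and 19 fell in HepG2, against 29.9% and 36.4% of genes as bright, and 17 rose and 15 fell in Huh7, against 33.0% and 39.2%. Without replicate 1 of the scrambled siRNA, 33 rose and 6 fell in Huh7, and 12 rose and 15 fell in HepG2. Centred on each gene's mean, the median subunit level ran from −0.13 to 0.04 on the Huh7 scrambled arrays. It ran from 0.12 to 0.25 with HDAC2 siRNA in Huh7 and from 0.05 to 0.11 with DMSO. The difference between these control groups was not tested.

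**Figure D1:**
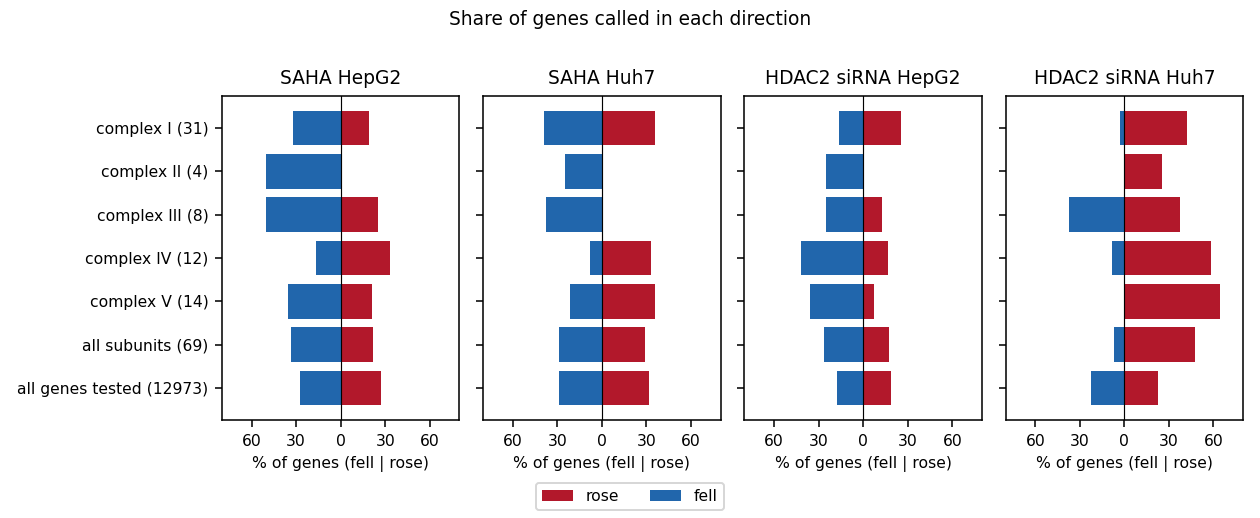
Share of genes that rose (red, right) and fell (blue, left), in percent of the genes named on the vertical axis, in each of the 4 treatment comparisons (limma, adjusted p under 0.05, quantile normalization). With HDAC2 siRNA in Huh7 47.8% of the 69 subunits rose and 7.25% fell, beside 22.9% and 22.4% of all genes tested, and under median scaling 21 subunits rose and 7 fell there.

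**Figure D2:**
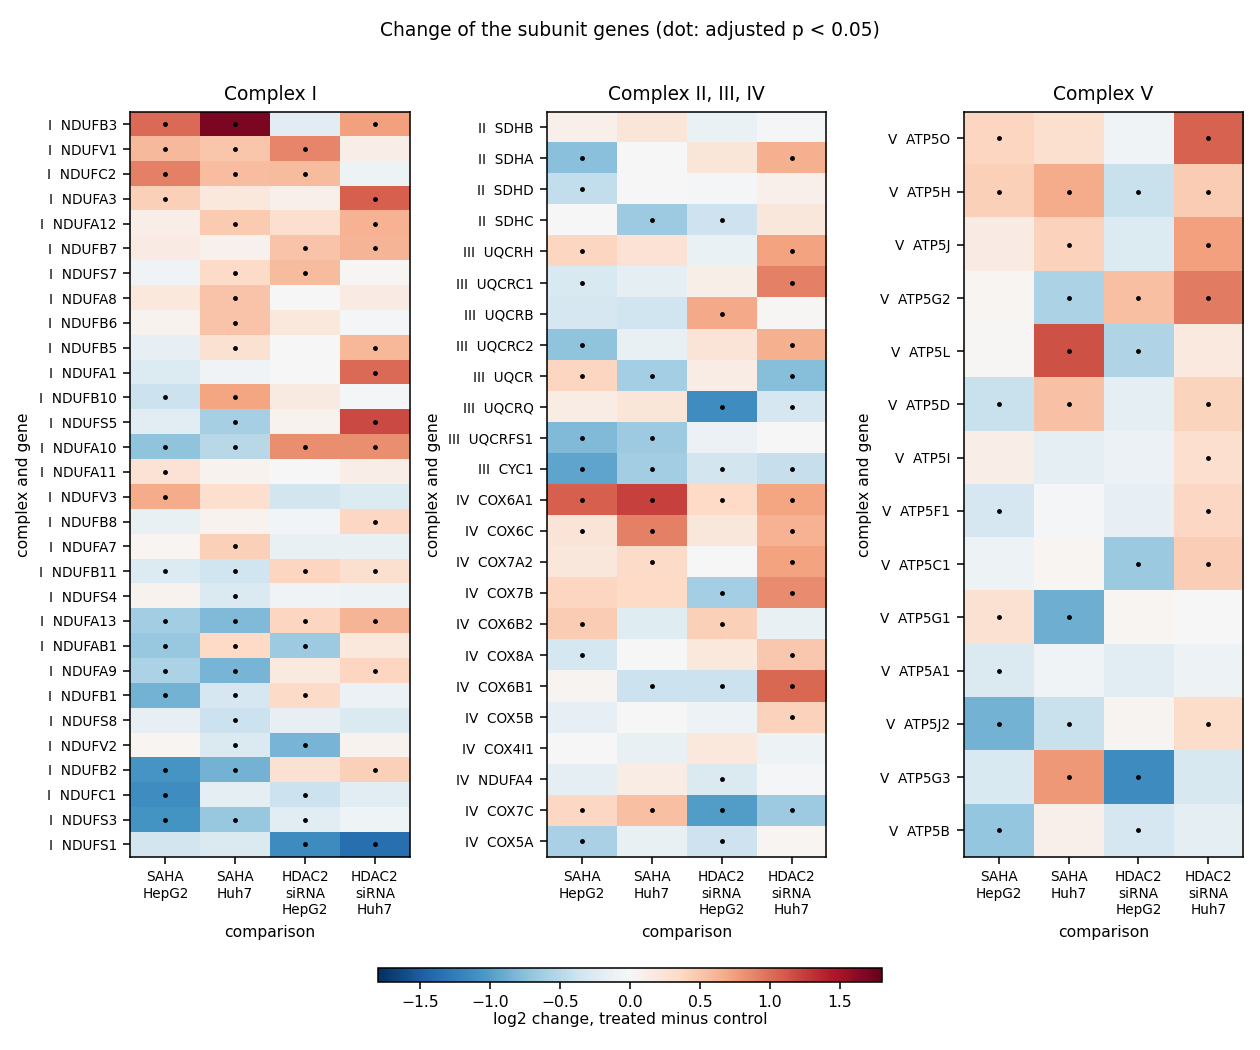
Log2 difference (colour, treated minus control) of the subunit genes, in rows by complex, in the 4 treatment comparisons, in columns, with a dot where the adjusted p was under 0.05 in limma. With HDAC2 siRNA in Huh7, 33 subunits rose and 5 fell (21 and 7 under median scaling), and the most positive and most negative values shown are those of NDUFB3 with SAHA in Huh7 (1.69) and NDUFS1 with HDAC2 siRNA in Huh7 (−1.35).

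Complex I couples NADH oxidation to ubiquinone reduction, and 7 of its nuclear subunits form the catalytic core. The counts of each complex stand beside these shares of all genes under quantile normalization. With SAHA 26.9% rose and 27.6% fell in HepG2, and 31.6% and 29.1% in Huh7. With HDAC2 siRNA the shares were 18.8% and 17.9% in HepG2, and 22.9% and 22.4% in Huh7. Those under median scaling are given above. With SAHA in HepG2, 1 core subunit rose and 1 fell, and in Huh7 2 rose and 4 fell; under median scaling 0 rose and 4 fell in HepG2, and 0 and 5 in Huh7. With HDAC2 siRNA, 2 rose and 3 fell in HepG2, and 0 rose and 1 fell in Huh7; under median scaling the counts were 2 and 2 in HepG2 and 0 and 2 in Huh7.

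NDUFS1 encodes the largest iron-sulfur subunit of the NADH-oxidising arm. With HDAC2 siRNA it stood at 6.54, 6.22, 6.11 and 5.68 in HepG2, against 6.74, 7.52, 7.49 and 7.31 with scrambled siRNA, and at 5.87, 5.74, 5.60 and 5.97 in Huh7, against 7.48, 6.84, 7.15 and 7.12 with scrambled siRNA. In both lines every HDAC2 siRNA array lay under every scrambled one. It fell by 1.13 ± 0.17 on the log2 scale in HepG2 (SE, limma adjusted p = 2.62e-06) and fell by 1.35 ± 0.17 in Huh7 (4.99e-08), to 45.7% and 39.2% of control. All arrays detected it, although the siRNA arrays came near the dimmest detected probes, at 5.21 to 5.54. SAHA gave −0.33 (adjusted p = 0.0948) in HepG2 and −0.26 (0.176) in Huh7, neither passing the test. Under median scaling NDUFS1 fell with SAHA too, in both lines.

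NDUFS3, another core subunit of the arm that reaches into the matrix, fell with SAHA in both lines. It stood at 11.43, 11.36, 11.46 and 11.39 with SAHA in HepG2, against 12.44, 12.55, 12.49 and 12.46 with DMSO, and at 11.62, 11.43, 11.51 and 11.48 with SAHA in Huh7, against 12.11, 12.18, 12.29 and 12.17 with DMSO. The groups were tight and far apart, with differences of −1.07 ± 0.07 in HepG2 (limma adjusted p = 3.42e-14) and −0.68 ± 0.07 in Huh7 (8.78e-10). NDUFS3 fell by 0.20 with HDAC2 siRNA in HepG2 (0.0256), a call that ended under median scaling (7e-04, 0.997), with only the groups compared (0.219) and without any of 4 arrays in turn (−0.20 to −0.17, highest p 0.0789), and lay at −0.07 in Huh7 (0.454).

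NDUFV1, the subunit that binds NADH, ran the other way. It stood at 11.27, 11.28, 11.05 and 11.17 with SAHA in HepG2, against 10.42, 10.70, 10.66 and 10.66 with DMSO, and at 11.50, 11.85, 11.80 and 12.11 with HDAC2 siRNA in HepG2, against 10.92, 10.80, 11.04 and 10.96 with scrambled siRNA. No array of either treated group fell within its control's range. The differences were 0.58 ± 0.11 with SAHA (limma adjusted p = 3.84e-05) and 0.89 ± 0.11 with HDAC2 siRNA (1.95e-07). In Huh7 SAHA gave 0.50 ± 0.11 (0.00025) and HDAC2 siRNA 0.12 ± 0.11 (0.401). Under median scaling the SAHA calls ended, at 0.22 in both lines (0.136 in HepG2, 0.132 in Huh7). NDUFV2, which sits beside NDUFV1, fell with HDAC2 siRNA in HepG2 by 0.84 ± 0.09 (2.62e-08) and lay at 0.06 in Huh7 (0.664).

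The 24 accessory subunits stabilise the complex, and their counts stand beside the all-gene shares given with the core. With SAHA 5 rose and 9 fell in HepG2, and 9 rose and 8 fell in Huh7, while under median scaling 3 rose and 15 fell in HepG2 and 2 and 9 in Huh7. With HDAC2 siRNA 6 rose and 2 fell in HepG2, and 13 rose and 0 fell in Huh7, with 8 and 0 in HepG2 and 9 and 0 in Huh7 under median scaling.

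The 5 largest rises of any subunit with HDAC2 siRNA in Huh7 were NDUFS5, NDUFA3, ATP5O, COX6B1 and NDUFA1. The scrambled groups of all 5 averaged lower than the DMSO groups of Huh7, a difference that was not tested. Their Huh7 means with DMSO, scrambled and HDAC2 siRNA were 12.69, 12.20 and 13.39 for NDUFS5, and 11.96, 11.39 and 12.46 for NDUFA3. For ATP5O they were 12.38, 11.97 and 13.03, for COX6B1 13.055, 12.03 and 13.06, and for NDUFA1 13.17, 12.17 and 13.19. NDUFS5, an accessory subunit facing the intermembrane space, stood at 13.45, 13.40, 13.53 and 13.16 with HDAC2 siRNA in Huh7, against 12.67, 11.85, 12.20 and 12.06 with scrambled siRNA. All 4 siRNA arrays lay above all 4 scrambled ones, and the difference was 1.19 ± 0.14 (limma adjusted p = 2e-08), or 2.28-fold. In HepG2 it was 0.06 ± 0.14 (0.777). NDUFA3, a membrane-arm subunit, stood at 12.54, 12.31, 12.66 and 12.34 with HDAC2 siRNA in Huh7, against 11.75, 11.13, 11.51 and 11.17 with scrambled siRNA, a rise of 1.07 ± 0.12 (1.78e-08). In HepG2 it differed by 0.10 (0.595). NDUFA1, another membrane-arm subunit, rose by 1.02 ± 0.13 in Huh7 (1.69e-07) and lay at −0.01 in HepG2 (0.971).

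RefSeq promoter windows, from 250 bases before to 50 after the transcript start (GRCh38.p14), are shown for 5 subunits named in the siRNA comparisons, chosen because the window holds one of the words searched. Capitals mark a word of NRF1, a factor of nuclear respiratory genes (its palindromic GC-rich consensus), of ETS factors (CCGGAAGT) or of YY1 (AAGATGGCG), searched on both strands. These are NDUFA3, chr19:54102605-54102904 (+), ATP5O, chr21:33915755-33916054 (−), UQCRC1, chr3:48609597-48609896 (−), which rose with HDAC2 siRNA in Huh7, and NDUFS1, chr2:206159395-206159694 (−), and UQCRQ, chr5:132866392-132866691 (+), which fell in both lines.
NDUFA3: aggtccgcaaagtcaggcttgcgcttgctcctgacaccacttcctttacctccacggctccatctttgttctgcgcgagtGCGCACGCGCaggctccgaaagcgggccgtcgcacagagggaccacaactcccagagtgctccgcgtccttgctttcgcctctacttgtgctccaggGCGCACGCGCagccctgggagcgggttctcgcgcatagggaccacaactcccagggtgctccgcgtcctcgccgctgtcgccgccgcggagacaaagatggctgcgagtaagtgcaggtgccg
ATP5O: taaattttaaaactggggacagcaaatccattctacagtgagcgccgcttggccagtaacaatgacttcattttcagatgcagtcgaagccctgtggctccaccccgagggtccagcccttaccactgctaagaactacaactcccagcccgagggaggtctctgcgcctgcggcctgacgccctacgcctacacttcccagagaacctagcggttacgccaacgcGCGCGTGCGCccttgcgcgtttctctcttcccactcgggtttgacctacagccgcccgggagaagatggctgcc
UQCRC1: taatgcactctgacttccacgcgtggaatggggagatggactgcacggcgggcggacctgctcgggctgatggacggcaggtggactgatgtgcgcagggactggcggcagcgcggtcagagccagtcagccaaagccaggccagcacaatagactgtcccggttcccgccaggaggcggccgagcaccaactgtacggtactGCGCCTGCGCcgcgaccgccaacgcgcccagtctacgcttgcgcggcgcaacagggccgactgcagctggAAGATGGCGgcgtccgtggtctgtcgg
NDUFS1: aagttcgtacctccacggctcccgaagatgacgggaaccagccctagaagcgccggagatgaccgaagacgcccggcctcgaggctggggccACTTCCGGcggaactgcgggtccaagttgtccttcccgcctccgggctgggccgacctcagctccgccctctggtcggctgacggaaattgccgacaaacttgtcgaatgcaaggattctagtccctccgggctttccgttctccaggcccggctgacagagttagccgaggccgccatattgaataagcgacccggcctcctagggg
UQCRQ: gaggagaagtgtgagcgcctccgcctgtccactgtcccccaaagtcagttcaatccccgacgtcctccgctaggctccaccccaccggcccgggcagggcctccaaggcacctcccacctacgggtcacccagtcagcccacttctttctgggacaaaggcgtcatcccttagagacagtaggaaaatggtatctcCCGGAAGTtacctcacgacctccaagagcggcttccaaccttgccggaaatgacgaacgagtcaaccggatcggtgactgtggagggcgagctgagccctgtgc
Of 78 subunit genes on the array, 63 matched a window by symbol, giving 76 windows. The NRF1 word was in 19.7% of them and in 5.78% of all 35116 windows, the ETS word in 14.5% and 4.14%, and the YY1 word in 11.8% and 1.75%. With HDAC2 siRNA in Huh7, 8 of the 13 tested genes with the NRF1 word rose and 1 fell, 6 and 3 of the 11 with the ETS word, and 4 and 0 of the 8 with the YY1 word, beside 47.8% and 7.25% of all subunits. Of all genes 22.9% rose and 22.4% fell there. In HepG2 the counts were 0 and 1, 1 and 3, and 1 and 0. Beside them stand 17.4% and 26.1% of all subunits and 18.8% and 17.9% of all genes. With SAHA 4, 3 and 0 of these genes rose and 5, 4 and 2 fell in HepG2, in the same order of words. In Huh7 2, 2 and 3 rose and 3, 2 and 2 fell. With SAHA in HepG2 21.7% of all subunits rose and 33.3% fell, against 26.9% and 27.6% of all genes. In Huh7 29% of all subunits rose and 29% fell, against 31.6% and 29.1% of all genes. The windows of COX6B1, NDUFA1 and COX6A1 and a second one of NDUFS1 hold none of the words and are not shown. A match describes the letters only, not binding.

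NDUFB3, a membrane-arm accessory subunit, had the largest SAHA rise of any subunit in Huh7. It stood at 13.34, 13.62, 13.39 and 13.49 with SAHA, against 11.98, 11.71, 11.63 and 11.77 with DMSO, and at 12.30, 12.54, 12.65 and 12.68 with SAHA in HepG2, against 11.73, 11.55, 11.24 and 11.58 with DMSO. The groups were apart in both lines, and the differences were 1.69 ± 0.14 in Huh7 (limma adjusted p = 3.69e-12), 3.23-fold, and 1.02 ± 0.14 in HepG2 (1.7e-07), 2.03-fold. NDUFB3 also rose by 0.74 ± 0.14 with HDAC2 siRNA in Huh7 (4.36e-05) and lay at −0.19 in HepG2 (0.315).

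The largest SAHA fall of any subunit in HepG2 was NDUFC1, which stood at 8.89, 8.95, 8.82 and 8.67 with SAHA, against 9.78, 10.13, 9.84 and 10.02 with DMSO. It fell by 1.11 ± 0.10 (limma adjusted p = 2.15e-11), while Huh7 gave −0.18 (0.107), a fall that passed the test under median scaling. NDUFB2, a membrane-arm subunit, fell by 1.07 ± 0.12 in HepG2 (2.6e-09) and fell by 0.85 ± 0.12 in Huh7 (1.61e-07). NDUFA9, which contacts the ubiquinone-binding region, fell by 0.57 ± 0.09 in HepG2 (2.83e-06) and fell by 0.84 ± 0.09 in Huh7 (1.68e-09). NDUFB1 was detected on 0 of 4 SAHA arrays of HepG2 and on 4 of 4 DMSO arrays, and was at least 1.24-fold lower with SAHA (7.69e-08).

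Further SAHA rises in complex I were NDUFC2, by 0.91 ± 0.21 in HepG2 (limma adjusted p = 0.000484) and 0.55 ± 0.21 in Huh7 (0.0249), and NDUFV3, by 0.67 ± 0.15 in HepG2 (0.00025), with a difference of 0.30 in Huh7 (0.0778). The Huh7 call of NDUFC2 ended under median scaling (0.42, 0.0694), with the authors' normalized values (0.0507) and without DMSO replicate 4 (0.0564) or SAHA replicate 1 (0.074). NDUFA3 rose by 0.43 ± 0.12 with SAHA in HepG2 (0.00396), which median scaling took to 0.09 (0.657), and differed by 0.18 in Huh7 (0.209). NDUFS5 fell by 0.60 ± 0.14 with SAHA in Huh7 (0.00038) and lay at −0.20 in HepG2 (0.242), a fall that passed the test under median scaling. With HDAC2 siRNA in HepG2 NDUFS7, a core subunit beside the quinone site, rose by 0.56 ± 0.12 (0.000394), and NDUFB7, an accessory subunit, rose by 0.51 ± 0.12 (0.00138) there and by 0.61 ± 0.12 in Huh7 (0.000115). NDUFC2 rose by 0.57 ± 0.21 (0.0357) with HDAC2 siRNA in HepG2, where its groups overlapped, and that call ended with only the groups compared (0.132), with the authors' normalized values (0.0696) and without any of 6 arrays in turn (0.33 to 0.58, highest p 0.215). NDUFC1 fell by 0.38 ± 0.10 with HDAC2 siRNA in HepG2 (0.00208), ending under median scaling at −0.30 (0.076).

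NDUFAB1, the mitochondrial acyl carrier protein, went in opposite directions with SAHA. It stood at 13.01, 13.02, 13.01 and 12.96 with SAHA in HepG2, against 13.64, 13.72, 13.65 and 13.72 with DMSO, and at 12.78, 12.50, 12.70 and 12.68 with SAHA in Huh7, against 12.29, 12.21, 12.26 and 12.44 with DMSO. It fell by 0.68 ± 0.12 in HepG2 (limma adjusted p = 1.5e-05) and rose by 0.36 ± 0.12 in Huh7 (0.0101), although the Huh7 call ended under median scaling, at 0.05 (0.787). NDUFAB1 also fell by 0.65 ± 0.12 with HDAC2 siRNA in HepG2 (8.3e-05), which median scaling took to −0.33 (0.103), and in Huh7 the difference was 0.18 (0.23). The HepG2 siRNA arrays were spread, at 14.07, 13.65, 13.18 and 13.15 (SD 0.43), against 14.17, 14.16, 14.16 and 14.13 with scrambled siRNA (SD 0.02).

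NDUFA10, NDUFA13 and NDUFB11, the last named after its values were seen, fell with SAHA and rose with HDAC2 siRNA in both lines, 3 of 69 subunits (4.35%) against 1.01% of all genes tested. Under median scaling the 3 were NDUFA10, NDUFA13 and SDHA, and the share of all genes was not counted there. NDUFA13, also known as GRIM-19, stood at 10.14, 10.44, 10.34 and 10.54 with SAHA in HepG2, against 11.01, 10.99, 10.86 and 11.09 with DMSO, and at 11.00, 11.19, 11.43 and 11.64 with HDAC2 siRNA, against 11.15, 10.86, 10.95 and 10.74 with scrambled siRNA. The SAHA groups were apart and the siRNA groups overlapped. In Huh7 it stood at 11.23, 11.11, 11.49 and 11.38 with SAHA, against 12.32, 11.92, 12.05 and 12.06 with DMSO, and at 12.41, 12.56, 12.53 and 12.41 with HDAC2 siRNA, against 11.95, 11.71, 11.98 and 11.82 with scrambled siRNA, with no overlap. With SAHA it fell by 0.62 ± 0.12 in HepG2 (limma adjusted p = 6.02e-05) and fell by 0.79 ± 0.12 in Huh7 (1.31e-06). HDAC2 siRNA raised it by 0.39 ± 0.12 in HepG2 (0.0119) and by 0.61 ± 0.12 in Huh7 (0.000101). The HepG2 siRNA call ended when HDAC2 siRNA replicate 4 (0.28, 0.0752) or scrambled replicate 4 (0.33, 0.0516) was left out, and when only the groups compared were fitted (0.106).

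NDUFA10, an accessory subunit, stood at 9.08, 9.09, 8.67 and 8.66 with SAHA in HepG2, against 9.49, 9.70, 9.68 and 9.53 with DMSO. With HDAC2 siRNA it stood at 9.16, 9.43, 9.37 and 9.22 there, against 8.48, 8.54, 8.44 and 8.36 with scrambled siRNA. The groups were apart in both, and the HepG2 control groups themselves averaged 9.60 with DMSO and 8.46 with scrambled siRNA, a difference that was not tested. With SAHA it fell by 0.73 ± 0.13 in HepG2 (limma adjusted p = 2.32e-05) and fell by 0.50 ± 0.13 in Huh7 (0.00149), where replicates overlapped. HDAC2 siRNA raised it by 0.84 ± 0.13 in HepG2 (8.61e-06) and by 0.84 ± 0.13 in Huh7 (3.8e-06). NDUFB11, an accessory subunit of the membrane arm, fell by 0.25 ± 0.09 with SAHA in HepG2 (0.0132) and fell by 0.36 ± 0.09 in Huh7 (0.000482), and rose with HDAC2 siRNA by 0.38 ± 0.09 in HepG2 (0.000614) and 0.28 ± 0.09 in Huh7 (0.00697), the last ending under median scaling at 0.06 (0.733).

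Complex II, succinate dehydrogenase, has 4 subunits, all nuclear, whose counts stand beside the all-gene shares given for complex I. With SAHA 0 rose and 2 fell in HepG2, and 0 rose and 1 fell in Huh7, while under median scaling 0 rose and 2 fell in HepG2 and 0 and 3 in Huh7. With HDAC2 siRNA 0 rose and 1 fell in HepG2, and 1 rose and 0 fell in Huh7, with 1 and 1 in HepG2 and 1 and 0 in Huh7 under median scaling. SDHA, the flavoprotein that oxidises succinate, stood at 10.43, 10.47, 10.29 and 10.42 with SAHA in HepG2, against 11.14, 11.00, 11.20 and 11.26 with DMSO, without overlap. It fell by 0.75 ± 0.09 there (limma adjusted p = 1.27e-08) and lay at −0.01 in Huh7 (0.916). Under median scaling SDHA fell with SAHA and rose with HDAC2 siRNA, each in both lines. With HDAC2 siRNA SDHA stood at 10.79, 10.80, 10.91 and 10.84 in Huh7, against 10.18, 10.00, 10.24 and 10.32 with scrambled siRNA, a rise of 0.65 ± 0.09 (3.5e-07), and in HepG2 it differed by 0.22 (0.0512). SDHC, a membrane anchor, fell by 0.65 ± 0.12 with SAHA in Huh7 (2.37e-05) and lay at 0.01 in HepG2 (0.934). With HDAC2 siRNA SDHC fell by 0.37 ± 0.12 in HepG2 (0.0164), with overlap, a call that ended with only the groups compared (0.136) and without HDAC2 siRNA replicate 3 (−0.32, 0.0602) or 4 (−0.24, 0.114). SDHD, the other anchor, fell by 0.45 ± 0.14 with SAHA in HepG2 (0.00873) and lay at 0.01 in Huh7 (0.965). Median scaling made SDHD a called fall in both lines. SDHB, the iron-sulfur subunit, passed in none of the 4 comparisons, its differences running between −0.12 and 0.22.

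Complex III, cytochrome bc1, had 8 subunits tested, to be set beside the all-gene shares given for complex I. With SAHA 2 rose and 4 fell in HepG2, and 0 rose and 3 fell in Huh7; median scaling gave 0 and 4 in HepG2 and 0 and 5 in Huh7. With HDAC2 siRNA 1 rose and 2 fell in HepG2 and 3 and 3 in Huh7, with 1 and 1 in HepG2 and 3 and 3 in Huh7 under median scaling. CYC1, cytochrome c1, the electron donor to cytochrome c, fell in all 4 comparisons, as did 2.17% of all genes. It stood at 12.17, 11.99, 11.94 and 11.87 with SAHA in HepG2, against 12.94, 12.93, 13.04 and 12.89 with DMSO, and at 12.48, 12.51, 12.58 and 12.33 with SAHA in Huh7, against 13.06, 13.04, 13.19 and 13.10 with DMSO. With HDAC2 siRNA it stood at 12.88, 12.70, 12.38 and 12.64 in HepG2, against 12.87, 13.01, 13.09 and 12.97 with scrambled siRNA, and at 12.86, 12.77, 12.68 and 12.79 in Huh7, against 12.96, 13.39, 13.11 and 13.31 with scrambled siRNA. The groups overlapped in HepG2 with HDAC2 siRNA and in no other comparison. With SAHA it fell by 0.95 ± 0.10 in HepG2 (limma adjusted p = 1.31e-09) and fell by 0.62 ± 0.10 in Huh7 (2.9e-06), and with HDAC2 siRNA it fell by 0.34 ± 0.10 in HepG2 (0.00881) and fell by 0.42 ± 0.10 in Huh7 (0.000912). The HepG2 siRNA call ended under median scaling (−0.10, 0.634), with only the groups compared (0.0955) and without HDAC2 siRNA replicate 3 (−0.25, 0.0578). Under median scaling NDUFS1 was the only subunit that fell in all 4 comparisons.

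UQCRQ, a small subunit of the complex, stood at 12.58, 12.71, 12.69 and 12.51 with HDAC2 siRNA in HepG2, against 14.04, 13.53, 13.58 and 13.83 with scrambled siRNA. It fell by 1.12 ± 0.11 (limma adjusted p = 4.52e-09), to 45.9% of control. In Huh7 it stood at 12.74, 12.77, 13.00 and 12.64 with HDAC2 siRNA, against 13.47, 12.92, 13.01 and 12.97 with scrambled siRNA, groups that overlapped, and it fell by 0.30 ± 0.11 (0.0301). That call ended without scrambled replicate 1 (−0.18, 0.198), which stood well above its group, without HDAC2 siRNA replicate 1 (−0.29, 0.0689), 2 (−0.30, 0.0569) or 4 (−0.25, 0.101), and with only the groups compared (0.0725).

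UQCRC1, a core protein of the complex, stood at 11.75, 11.94, 11.80 and 11.65 with HDAC2 siRNA in Huh7, against 11.02, 10.85, 10.69 and 10.97 with scrambled siRNA, a rise of 0.90 ± 0.09 (limma adjusted p = 2.24e-09), and differed by 0.10 in HepG2 (0.438). UQCR, which is UQCR11, went in opposite directions with SAHA, where it rose by 0.39 ± 0.12 in HepG2 (0.00768) and fell by 0.61 ± 0.12 in Huh7 (5.93e-05), although the HepG2 call ended under median scaling at 0.03 (0.886). It fell with HDAC2 siRNA in Huh7, standing at 7.78, 7.96, 7.87 and 7.90, against 8.68, 8.50, 8.73 and 8.67 with scrambled siRNA, and fell by 0.77 ± 0.12 (3.92e-06). UQCRFS1, the Rieske iron-sulfur protein, fell by 0.79 ± 0.11 with SAHA in HepG2 (3.17e-07) and fell by 0.66 ± 0.11 in Huh7 (5.14e-06). UQCRC2, the other core protein, fell by 0.72 ± 0.15 with SAHA in HepG2 (0.000169) and rose by 0.64 ± 0.15 with HDAC2 siRNA in Huh7 (0.00083), where its groups overlapped. UQCRH, the hinge protein at cytochrome c1, rose by 0.72 ± 0.13 with HDAC2 siRNA in Huh7 (2.71e-05) and by 0.38 ± 0.13 with SAHA in HepG2 (0.0128), the SAHA call ending under median scaling (0.26, 0.148) and without DMSO replicate 3 (0.0509) or SAHA replicate 3 (0.0507). UQCRB rose by 0.68 ± 0.18 with HDAC2 siRNA in HepG2 (0.00426), where 4 of 4 siRNA arrays and 1 of 4 scrambled arrays detected it.

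Complex IV, cytochrome c oxidase, had 12 subunits tested, NDUFA4 among them, to be set beside the all-gene shares given for complex I. With SAHA 4 rose and 2 fell in HepG2, and 4 rose and 1 fell in Huh7, while median scaling gave 2 and 3 in each line. With HDAC2 siRNA 2 rose and 5 fell in HepG2, and 7 rose and 1 fell in Huh7, with 4 and 2 in HepG2 and 5 and 1 in Huh7 under median scaling. The rises counted in HepG2 under quantile normalization include COX6B2, which was detected on 2 of 4 SAHA and 0 of 4 DMSO arrays, and on 1 of 4 HDAC2 siRNA and 0 of 4 scrambled siRNA arrays; its bound gives no fold in either. COX6A1, a nuclear subunit of the widely expressed isoform, rose in all 4 comparisons, 1 of 69 (1.45%) against 1.86% of all genes. It stood at 12.47, 12.48, 12.40 and 12.40 with SAHA in HepG2, against 11.39, 11.31, 11.18 and 11.55 with DMSO, and at 12.75, 12.76, 12.64 and 12.72 with SAHA in Huh7, against 11.57, 11.32, 11.56 and 11.51 with DMSO. It rose by 1.08 ± 0.12 in HepG2 (limma adjusted p = 4.79e-09) and by 1.23 ± 0.12 in Huh7 (2.58e-10). With HDAC2 siRNA it stood at 11.37, 11.55, 11.72 and 11.44 in HepG2, against 11.29, 11.09, 11.25 and 10.98 with scrambled siRNA, and rose by 0.37 ± 0.12 (0.0175), and in Huh7 it rose by 0.71 ± 0.12 (1.17e-05). No comparison of it overlapped. The HepG2 siRNA call ended with only the groups compared (0.0659), without HDAC2 siRNA replicate 3 (0.30, 0.0721) and without scrambled replicate 4 (0.31, 0.068).

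COX7C, another small nuclear subunit, rose with SAHA and fell with HDAC2 siRNA in both lines, as did 1.05% of all genes. With HDAC2 siRNA it stood at 12.68, 12.43, 12.96 and 12.73 in HepG2, against 13.98, 13.65, 13.63 and 13.53 with scrambled siRNA, and at 12.55, 12.47, 12.59 and 12.26 in Huh7, against 13.49, 12.85, 13.12 and 13.00 with scrambled siRNA, with no overlap. It fell by 1.00 ± 0.12 in HepG2 (limma adjusted p = 1.25e-07), and fell by 0.65 ± 0.12 in Huh7 (4.64e-05). SAHA raised it by 0.37 ± 0.12 in HepG2 (0.0108) and 0.54 ± 0.12 in Huh7 (0.000282), calls that ended under median scaling at 0.24 (0.162) in HepG2 and 0.31 (0.0618) in Huh7.

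COX6B1, on the intermembrane side of the complex, and COX7B went in opposite directions with HDAC2 siRNA. COX6B1 stood at 12.30, 12.20, 12.49 and 12.09 with HDAC2 siRNA in HepG2, against 12.93, 12.69, 12.62 and 12.39 with scrambled siRNA, and at 13.18, 12.95, 13.24 and 12.88 in Huh7, against 12.45, 11.69, 12.08 and 11.89 with scrambled siRNA, the HepG2 groups overlapping. It fell by 0.39 ± 0.14 in HepG2 (limma adjusted p = 0.0282) and rose by 1.04 ± 0.14 in Huh7 (2.54e-07). The HepG2 fall ended under median scaling (−0.18, 0.425), with only the groups compared (0.082), and without scrambled replicate 1 (−0.30, 0.119) or 2 (−0.38, 0.056) or HDAC2 siRNA replicate 2 (−0.37, 0.0613) or 4 (−0.33, 0.0929). COX7B stood at 10.68, 10.42, 10.62 and 10.19 with HDAC2 siRNA in HepG2, against 11.57, 11.18, 10.86 and 10.72 with scrambled siRNA, and at 11.26, 11.00, 11.28 and 10.73 in Huh7, against 10.85, 9.93, 10.07 and 10.01 with scrambled siRNA, with overlap in Huh7 only. It fell by 0.61 ± 0.18 in HepG2 (0.00905) and rose by 0.85 ± 0.18 in Huh7 (0.000248). The HepG2 call of COX7B ended without scrambled replicate 1 (−0.44, 0.0612).

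COX6C rose by 0.91 ± 0.09 with SAHA in Huh7 (limma adjusted p = 1.96e-10) and by 0.62 ± 0.09 with HDAC2 siRNA in Huh7 (7.23e-07). In HepG2 it rose by 0.23 ± 0.09 with SAHA (0.0262), which median scaling took to 0.12 (0.415), and differed by 0.21 with HDAC2 siRNA (0.064). The SAHA call in HepG2 also ended without DMSO replicate 3 (0.0778) or SAHA replicate 3 (0.0576) or 4 (0.0938). COX5A, which binds beside the COX4 subunit, fell by 0.58 ± 0.09 with SAHA in HepG2 (1.67e-06) and lay at −0.14 in Huh7 (0.2). Median scaling made COX5A a called fall in both lines. COX7A2, the isoform of liver, rose by 0.73 ± 0.15 with HDAC2 siRNA in Huh7 (0.000107), with overlap, and lay at −0.01 in HepG2 (0.97). COX8A, the widespread isoform, rose by 0.49 ± 0.10 with HDAC2 siRNA in Huh7 (8.26e-05), which median scaling took to 0.25 (0.116), and fell by 0.31 ± 0.10 with SAHA in HepG2 (0.00636). NDUFA4 fell by 0.26 ± 0.10 with HDAC2 siRNA in HepG2 (0.0358), with overlap, a call that ended under median scaling (−0.03, 0.894), with only the groups compared (0.21) and without any of 4 arrays in turn (−0.26 to −0.17, highest p 0.19). COX4I1, of the regulatory COX4 pair, passed in none of the comparisons, at −0.14 to 0.19.

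Complex V, the ATP synthase, had 14 subunits tested, to be set beside the all-gene shares given for complex I. With SAHA 3 rose and 5 fell in HepG2 and 5 rose and 3 fell in Huh7, with 1 and 6 in HepG2 and 3 and 6 in Huh7 under median scaling. With HDAC2 siRNA 1 rose and 5 fell in HepG2, and 9 rose and 0 fell in Huh7, which median scaling took to 1 and 3 in HepG2 and 3 and 1 in Huh7. ATP5O, OSCP, which links the catalytic head to the peripheral stalk, stood at 13.14, 12.97, 13.11 and 12.90 with HDAC2 siRNA in Huh7, against 12.38, 11.78, 11.90 and 11.81 with scrambled siRNA, a rise of 1.06 ± 0.13 (limma adjusted p = 3.86e-08), 2.09-fold. In HepG2 it differed by −0.07 (0.717). ATP5H, of the peripheral stalk, rose with SAHA in both lines, by 0.43 ± 0.09 in HepG2 (0.000229) and 0.66 ± 0.09 in Huh7 (2.52e-07). ATP5H fell by 0.41 ± 0.09 with HDAC2 siRNA in HepG2 (0.00087) and rose in Huh7 by 0.46 ± 0.09 (0.000122), but median scaling ended both, at −0.16 (0.387) and 0.25 (0.118). ATP5L, subunit g in the membrane sector, stood at 9.18, 9.28, 9.21 and 9.06 with SAHA in Huh7, against 7.77, 8.22, 8.06 and 8.07 with DMSO, a rise of 1.15 ± 0.12 (1.89e-09), with 0.02 in HepG2 (0.91). ATP5B, the catalytic beta subunit, fell by 0.70 ± 0.08 with SAHA in HepG2 (2.14e-08) and lay at 0.09 in Huh7 (0.363). ATP5J2, subunit f, fell by 0.84 ± 0.09 with SAHA in HepG2 (9.4e-10) and fell by 0.40 ± 0.09 in Huh7 (0.000187). ATP5D, the delta subunit, fell by 0.39 ± 0.10 with SAHA in HepG2 (0.00177) and rose by 0.53 ± 0.10 in Huh7 (4.61e-05), calls that ended with the mean of its probes in HepG2 (−0.26, 0.0559) and under median scaling in Huh7 (0.28, 0.0604). ATP5C1, the gamma subunit or rotor shaft, fell by 0.66 ± 0.17 with HDAC2 siRNA in HepG2 (0.00258), with overlap, and ATP5J, subunit F6, rose by 0.74 ± 0.16 in Huh7 (0.000235). In Huh7 ATP5C1 rose by 0.44 ± 0.17 (0.0347), a call that ended under median scaling (0.24, 0.306) and without any of 5 arrays in turn. ATP5L fell by 0.54 ± 0.12 with HDAC2 siRNA in HepG2 (0.000879), with overlap. ATP5O rose by 0.38 ± 0.13 with SAHA in HepG2 (0.0126), which ended under median scaling (0.22, 0.213) and without DMSO replicate 3 (0.29, 0.0686).

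ATP5G1, ATP5G2 and ATP5G3 (ATP5MC1, ATP5MC2 and ATP5MC3) encode the same mature subunit c, the ring that turns as protons pass, from 3 genes. With SAHA in Huh7 ATP5G1 stood at 11.66, 11.72, 11.81 and 11.93, against 12.85, 12.57, 12.55 and 12.67 with DMSO, and ATP5G3 at 9.42, 9.50, 9.08 and 9.11, against 8.44, 8.79, 8.37 and 8.41 with DMSO. The groups of both genes were apart, in opposite directions. ATP5G1 fell by 0.88 ± 0.11 (limma adjusted p = 2.43e-08), ATP5G2 fell by 0.57 ± 0.12 (0.000162) and ATP5G3 rose by 0.78 ± 0.15 (4.36e-05). With SAHA in HepG2 ATP5G1 rose by 0.28 ± 0.11 (0.0309), a call that ended under median scaling (0.07, 0.672), with the mean of its probes (0.13, 0.324) and without any of 6 arrays in turn (0.24 to 0.28, highest p 0.0878), and ATP5G2 and ATP5G3 lay at 0.03 (0.857) and −0.27 (0.136).

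With HDAC2 siRNA in HepG2 ATP5G3 stood at 7.29, 7.03, 6.57 and 6.30, against 7.97, 7.92, 7.82 and 8.04 with scrambled siRNA, and fell by 1.14 ± 0.15 (limma adjusted p = 5.25e-07), to 45.4% of control. ATP5G2 stood at 12.09, 12.22, 12.61 and 12.38 with HDAC2 siRNA in HepG2, against 12.05, 11.79, 11.72 and 11.59 with scrambled siRNA, and at 13.15, 13.16, 13.28 and 12.95 in Huh7, against 12.48, 11.95, 12.30 and 12.07 with scrambled siRNA, with no overlap in either line. It rose by 0.54 ± 0.12 in HepG2 (0.000775) and 0.93 ± 0.12 in Huh7 (1.67e-07). The HepG2 rise ended when the gene's detected probes were averaged (0.05, 0.816), since its other probe differed by −0.44, which was not called. ATP5G1 lay at 0.04 in HepG2 (0.827) and −0.01 in Huh7 (0.946), and ATP5G3 at −0.29 in Huh7 (0.126). The other, dimmer probe of ATP5G1 fell by 0.51 in Huh7 (0.00385) and lay at 0.02 in HepG2 (0.934).

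**Figure D3:**
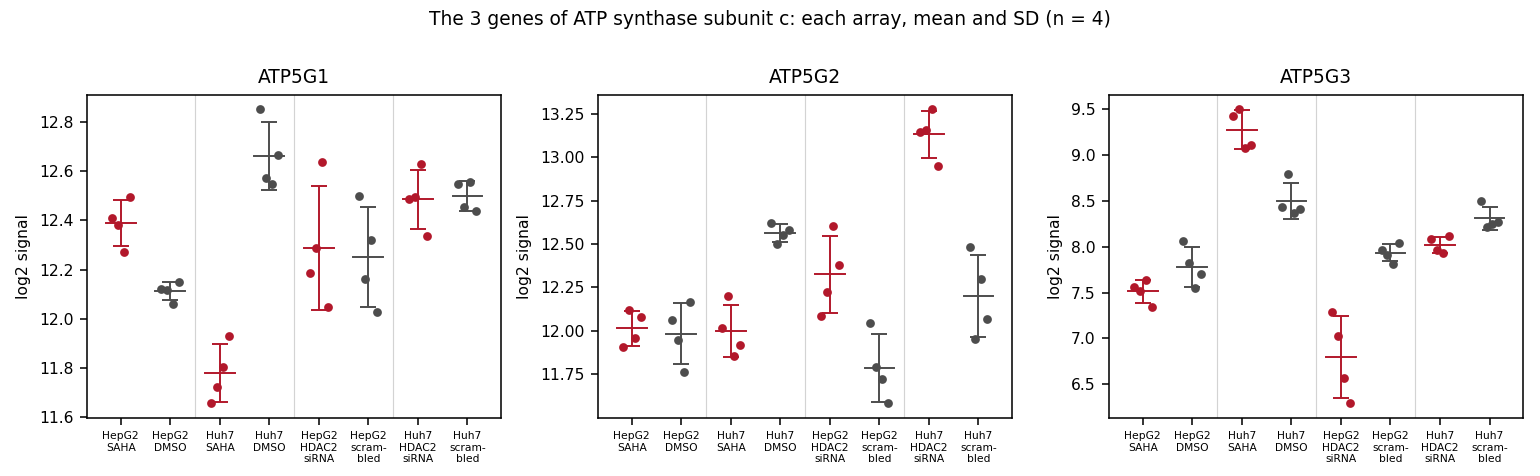
Log2 levels of ATP5G1, ATP5G2 and ATP5G3 on each array of the 8 groups (points), with the group mean and SD as bars, treated groups in red and controls in grey. With SAHA in Huh7 ATP5G1 lies at 11.66 to 11.93, against 12.55 to 12.85 with DMSO, while ATP5G3 lies at 9.08 to 9.50 with SAHA, against 8.37 to 8.79 with DMSO.

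Across the 4 comparisons, 7 subunits rose with SAHA in both lines, 10.1% against 14.9% of all genes: ATP5H, COX6A1, COX6C, COX7C, NDUFB3, NDUFC2 and NDUFV1. Median scaling left 3 of them, ATP5H, COX6A1 and NDUFB3. The 10 that fell with SAHA in both lines, 14.5% against 14.9%, were ATP5J2, CYC1, NDUFA10, NDUFA13, NDUFA9, NDUFB1, NDUFB11, NDUFB2, NDUFS3 and UQCRFS1. All 10 were among the 21 that fell in both lines under median scaling, where 37.71% of all genes fell in HepG2 and 36.11% in Huh7. The share of all genes was not counted for any pattern across comparisons under median scaling. Those pattern counts therefore have no background to stand beside. The rest of the 21 were ATP5A1, ATP5F1, COX5A, NDUFC1, NDUFS1, NDUFS5, NDUFS8, SDHA, SDHD, UQCRC1 and UQCRC2. NDUFB1 was not well above background on any of the 8 SAHA and DMSO arrays of Huh7, so its call there has no fold. With HDAC2 siRNA 6 rose in both lines (8.70% against 7.11%) and 4 fell in both (5.80% against 7.63%), the last being COX7C, CYC1, NDUFS1 and UQCRQ. Median scaling gave 8 that rose, 5 of them the same and the rest COX6C, NDUFA12 and SDHA. It gave 3 that fell, all but CYC1. COX4I1 and SDHB passed in none of the 4, 2 of 69 (2.90%) against 13.3% of all genes, and of 4 that passed in none under median scaling SDHB was the one shared. NDUFAB1, ATP5D, ATP5G1, NDUFB10 and UQCR were called in opposite directions in the lines with SAHA (7.25% against 8.06%), and ATP5C1, ATP5H, COX6B1 and COX7B were with HDAC2 siRNA (5.80% against 5.67%). Under median scaling opposite calls were left for NDUFB10 with SAHA, where ATP5G3 joined it, and for COX7B with HDAC2 siRNA.

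**Figure D4:**
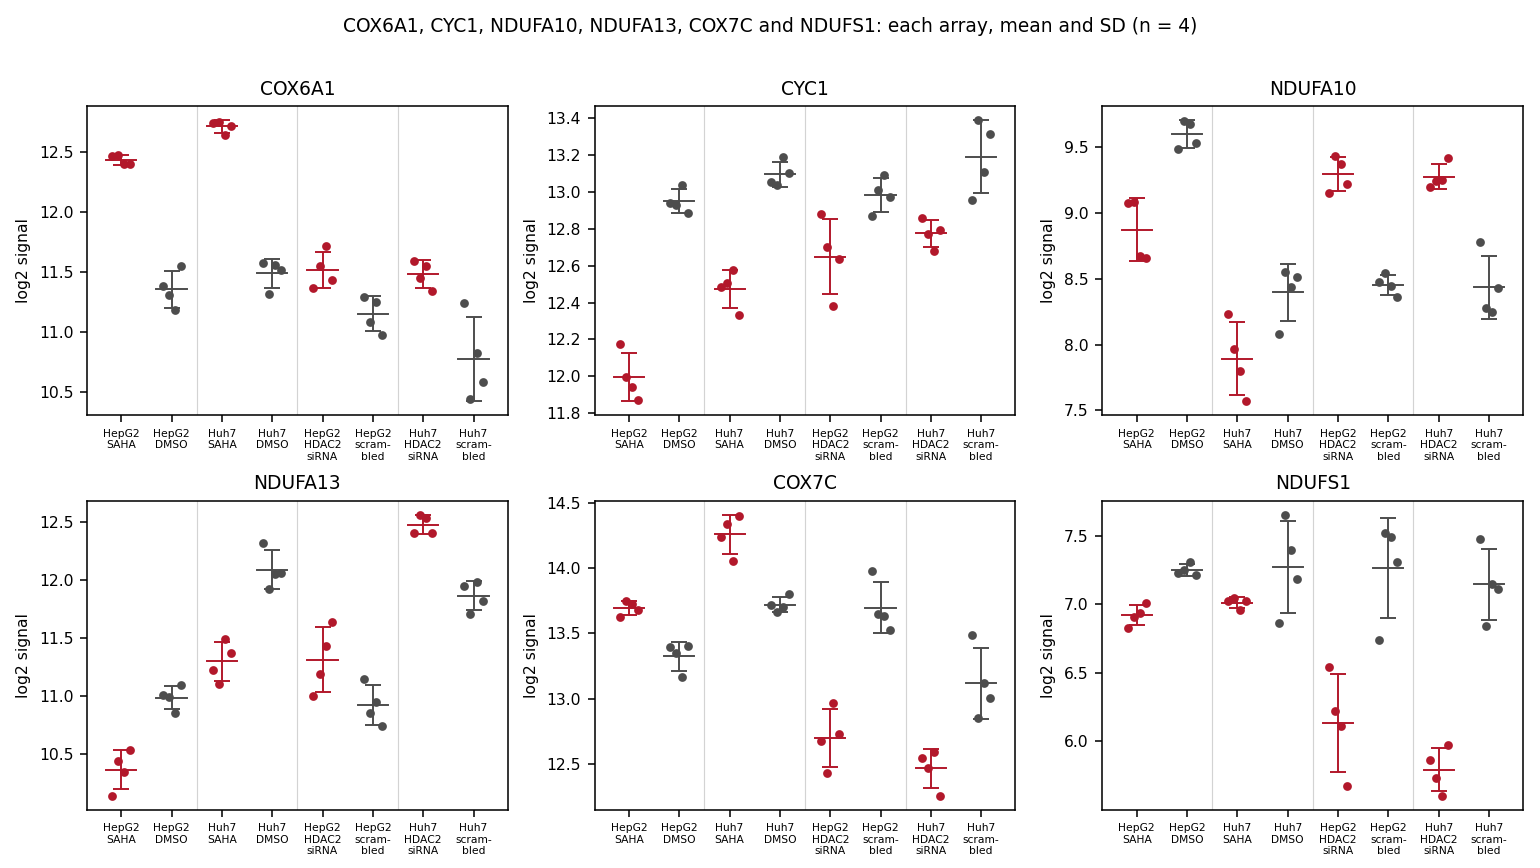
Log2 levels of COX6A1, CYC1, NDUFA10, NDUFA13, COX7C and NDUFS1 on each array of the 8 groups (points), with the group mean and SD as bars, treated groups in red and controls in grey. COX6A1 lies above its control in all 4 comparisons, and NDUFA13 lies lower with SAHA (11.11 to 11.49 in Huh7, against 11.92 to 12.32 with DMSO) and higher with HDAC2 siRNA (12.41 to 12.56, against 11.71 to 11.98 with scrambled siRNA). Under median scaling the direction of these 2 genes was kept.

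Whether the lines differed in their response was tested directly, as HepG2 minus Huh7. For SAHA, 8 subunits had a higher response in HepG2 and 21 a lower one, where 52.2% of all genes passed, 24.1% higher and 28.1% lower. Median scaling gave 6 and 13, against 21.85% and 26.95% of all genes. Without SAHA replicate 2 of HepG2, 5 were higher. For HDAC2 siRNA 6 were higher and 28 lower, where 37.2% of all genes passed, 18.8% higher and 18.4% lower. Median scaling gave 10 and 12, against 20.16% and 14.48% of all genes. The median subunit difference was then 0.06 in place of −0.29, and −0.02 when taken from the median of all genes. Without scrambled replicate 1 of Huh7 4 were higher and 34 lower, and without that of HepG2 4 and 27.

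For HDAC2 siRNA, COX7B differed by −1.46 ± 0.26 (limma adjusted p = 3.79e-05), COX6B1 by −1.43 ± 0.20 (9.86e-07), ATP5O by −1.13 ± 0.18 (9.67e-06), NDUFS5 by −1.13 ± 0.20 (2.97e-05), ATP5C1 by −1.10 ± 0.24 (0.0005) and NDUFA1 by −1.02 ± 0.19 (6.33e-05), the last ending under median scaling (−0.57, 0.0509). In the other direction lay UQCR at 0.90 ± 0.17 (9.6e-05) and NDUFV1 at 0.76 ± 0.16 (0.00025). For SAHA, ATP5G1 differed by 1.16 ± 0.15 (1.86e-07), and UQCR by 0.99 ± 0.17 (1.26e-05). Downward lay ATP5L at −1.13 ± 0.18 (2.86e-06), NDUFB10 at −1.09 ± 0.12 (4.48e-09), ATP5G3 at −1.05 ± 0.21 (0.000125) and NDUFAB1 at −1.04 ± 0.17 (5.96e-06). NDUFB10, a membrane-arm subunit, fell by 0.39 ± 0.08 with SAHA in HepG2 (0.00022) and rose in Huh7 by 0.71 ± 0.08 (1.27e-08).

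**Figure D5:**
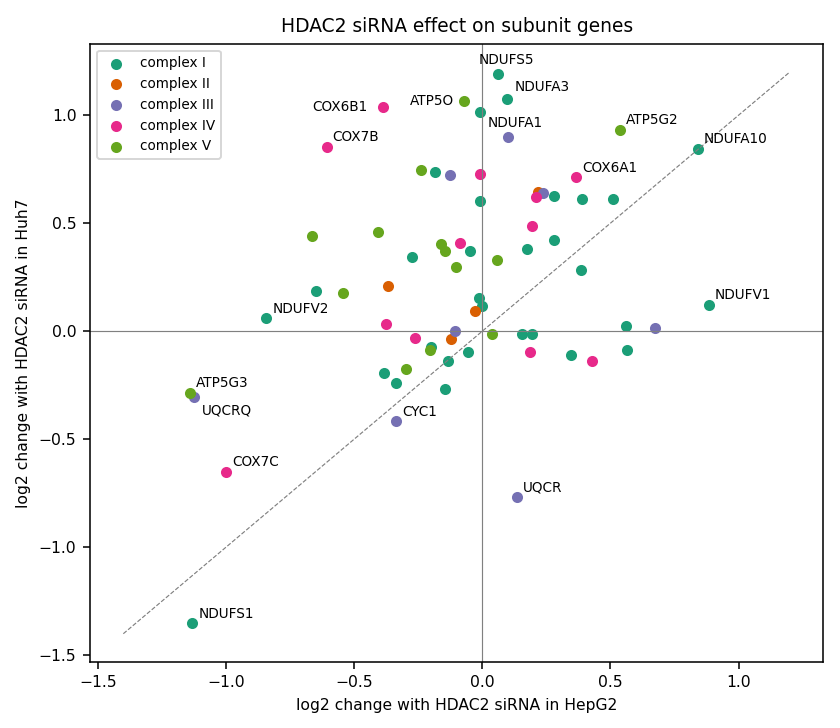
Log2 difference with HDAC2 siRNA of each of the 69 subunits in HepG2 (horizontal) and Huh7 (vertical), coloured by complex, with a dashed line where both would be equal. COX7B and COX6B1 lie at −0.61 and −0.39 in HepG2 and at 0.85 and 1.04 in Huh7, above the line, and 28 subunits in all had a lower response in HepG2, against 12 under median scaling.

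Between the control arrays of the 2 lines, 24 subunits were higher in HepG2 and 28 lower, where 33.3% and 35.7% of all genes were and 69.0% passed in either direction. Median scaling gave 21 and 30, against 32.34% and 34.91% of all genes. Without scrambled replicate 1 of HepG2 the counts were 24 and 28, and without that of Huh7 26 and 26. UQCRC2, a core protein of complex III, was higher by 1.55 ± 0.11 (limma adjusted p = 4.51e-14), and NDUFAB1 by 1.46 ± 0.09 (6.04e-16). Lower in HepG2 were NDUFV1, with a difference of −1.72 ± 0.08 (8.53e-19), NDUFS8, a core subunit, at −1.70 ± 0.08 (2.34e-18), NDUFB11 at −1.12 ± 0.06 (6.39e-17) and NDUFA13 at −1.02 ± 0.09 (4.06e-12).

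Of 11 genes with several detected probes, 44 gene and comparison pairs could be set side by side, and the probes were called in opposite directions in 1, ATP5D with HDAC2 siRNA in Huh7. In 14 pairs, that one included, the probes differed in the call. With SAHA in HepG2 the brighter probe of ATP5I differed by 0.12 (limma adjusted p = 0.244) and the dimmer by 1.21 (9.89e-09), and the probe of NDUFV3 used here rose by 0.67 where its other probe lay at 0.04 (0.898). The 6 matching genes that are not structural subunits are NDUFAF1 and NDUFAF2, which assemble complex I, COX4NB (EMC8), ATP5S and ATP5SL (the DMAC2L and DMAC2 genes) and ATP5EP2, a pseudogene of the epsilon subunit. Their counts stand beside the all-gene shares given for complex I. With SAHA 0 of them rose and 2 fell in HepG2, and 1 rose and 2 fell in Huh7. With HDAC2 siRNA 1 rose in HepG2 and 3 in Huh7, and none fell. Among the 3 is ATP5S, whose call ended in 12 of 19 alternatives, with the mean of its probes at 0.05 (0.765). Between the lines' controls ATP5S was 2.24 ± 0.08 higher in HepG2 (limma adjusted p = 5.06e-21), and 1.18 higher with no background correction. Among the 9 subunit genes with no probe above the threshold were the tissue isoforms COX4I2, COX6A2, COX7A1, COX7B2 and COX8C, each detected on 0 or 1 array, and NDUFS6, detected on 2. Just inside the threshold lay COX6B2, a testis isoform, on 5 arrays, NDUFB1 on 13 and UQCRB on 25.

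Of other genes of the pathway, 6 lists were followed under the quantile normalization only. Of all genes 26.9% rose and 27.6% fell with SAHA in HepG2 and 31.6% and 29.1% in Huh7, and 18.8% and 17.9% did with HDAC2 siRNA in HepG2 and 22.9% and 22.4% in Huh7. Assembly factors and chaperones of the complexes (33 tested) held 5 genes that rose and 18 that fell with SAHA in HepG2, and 6 and 17 in Huh7. With HDAC2 siRNA 6 of them rose and 7 fell in HepG2, and 8 and 13 in Huh7. Of 14 genes of electron carriers and their feeders, 4 rose and 5 fell with SAHA in HepG2 and 7 and 4 in Huh7, and with HDAC2 siRNA 2 rose and 7 fell in HepG2 and 1 and 7 in Huh7. CYCS, cytochrome c itself, rose by 0.84 ± 0.19 with SAHA in HepG2 (limma adjusted p = 0.000248) and 1.35 ± 0.19 in Huh7 (1.72e-07). With HDAC2 siRNA CYCS fell by 1.60 ± 0.19 in HepG2 (5.34e-08) and fell by 1.28 ± 0.19 in Huh7 (9.83e-07). Of 13 TCA cycle genes, 1 rose and 7 fell with SAHA in HepG2 and 7 rose and 2 fell in Huh7, and with HDAC2 siRNA 4 rose and 5 fell in HepG2 and 5 and 3 in Huh7. Of 13 genes of pyruvate entry and lactate, 1 rose and 6 fell with SAHA in HepG2 and 4 and 3 in Huh7, and 0 rose and 6 fell with HDAC2 siRNA in HepG2 and 2 and 5 did in Huh7. Of 11 regulators of mitochondrial biogenesis, 2 rose and 6 fell with SAHA in HepG2, 3 and 5 in Huh7, and with HDAC2 siRNA 1 rose and 3 fell in HepG2 and 3 and 3 in Huh7. PPARGC1A, a coactivator of respiratory genes, fell by 0.92 ± 0.15 with HDAC2 siRNA in HepG2 (1.43e-05) and rose by 2.64 ± 0.15 in Huh7 (4.63e-15). With SAHA it rose by 0.50 ± 0.15 in HepG2 (0.00552) and by 1.99 ± 0.15 in Huh7 (6.87e-13). Of 9 genes of ATP synthase partners and ATP export, 1 rose and 4 fell with SAHA in HepG2 and 2 and 2 in Huh7, and 0 rose and 5 fell with HDAC2 siRNA in HepG2, and 3 rose and 2 fell in Huh7.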

How the data were processed

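Total RNA of 32 samples was read on Illumina bead arrays, 1 array each. The authors deposited non-normalized intensity values with detection p-values for 24526 probes, per the file headers, and a table of their own normalized intensities, which was used as an alternative. The submitters' processing notes name GenomeStudio 2011.1. Here intensities were background-corrected by normexp from the deposited detection p-values (limma 3.58.1, R 4.3.3), an offset of 16 was added, log2 values were taken, and all 32 arrays were then quantile-normalized. Probes with a detection p under 0.05 on at least 4 arrays were kept, 1 per gene, the brightest. One model with a mean for each of the 8 groups was fitted to 12973 genes (24 residual and 5.779 prior degrees of freedom), with Benjamini-Hochberg adjustment and an adjusted p under 0.05. The fit was tested on simulated data. No arrays held identical values. The number of arrays limits the precision. Replicate numbers were not used as pairs in the main fit. Of 16 pairs of the same number, 4 had a correlation over 0.1. That check cannot exclude an effect shared by arrays of one number. The members and gene lists were chosen with earlier results of these data known. Genes named are the 10 largest rises and falls in each comparison, the smallest p of each complex, all SDH genes, CYC1, isoform partners and the largest line differences. Alternatives were other background, scaling, offset, filter, probe and sample choices, the replicate block and leaving out each array. One gene of complex I is counted but not reported here.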

Additional observations from a re-analysis of the deposited data

Results flagged for a closer look

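With 4 arrays in each group, the array farthest from its group was compared with the others for the 26 genes printed by array and for the medians of the complexes, 256 groups in all, and 12 held an array set apart, where chance gives about 1 in 20. The levels set apart were NDUFV1 on replicate 1 of HepG2 with DMSO (10.42), UQCR on replicate 4 of HepG2 with HDAC2 siRNA (7.15), UQCRC1 on replicate 2 of Huh7 with DMSO (10.71), UQCRQ on replicate 3 of HepG2 with SAHA (13.09), UQCRQ and COX7B on replicate 1 of Huh7 with scrambled siRNA (13.47 and 10.85), ATP5G3 on replicate 2 of Huh7 with DMSO (8.79) and ATP5L on replicate 1 of HepG2 with SAHA (7.83). Of the medians over genes, centred on each gene's mean, those set apart were all subunits on replicate 2 of HepG2 with SAHA (−0.13), complex I on replicate 3 of Huh7 with HDAC2 siRNA (0.36), complex II on replicate 1 of Huh7 with HDAC2 siRNA (0.17) and complex II on replicate 4 of HepG2 with scrambled siRNA (−0.0876).

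For named subunits the response to SAHA differed between the lines in limma's test of that difference (HepG2 minus Huh7, log2). It was higher in HepG2 for ATP5G1 (1.16), UQCR (0.99), COX6B2 (0.67), SDHC (0.66) and ATP5G2 (0.60). It was lower in HepG2 for ATP5L (−1.13), NDUFB10 (−1.09), ATP5G3 (−1.05), NDUFAB1 (−1.04), NDUFC1 (−0.93), ATP5D (−0.93), SDHA (−0.74), NDUFB3 (−0.67), NDUFS3 (−0.40) and CYC1 (−0.33). The response to HDAC2 siRNA was higher in HepG2 for UQCR (0.90), NDUFV1 (0.76), UQCRB (0.66), COX6B2 (0.57), NDUFS7 (0.54) and NDUFB1 (0.46). It was lower for COX7B (−1.46), COX6B1 (−1.43), ATP5O (−1.13), NDUFS5 (−1.13), ATP5C1 (−1.10), NDUFA1 (−1.02), NDUFA3 (−0.98), NDUFB3 (−0.92), ATP5H (−0.87), ATP5G3 (−0.85), NDUFAB1 (−0.83), UQCRQ (−0.82), UQCRC1 (−0.80), ATP5L (−0.72) and SDHA (−0.43). Under median scaling the test of the difference was no longer passed with SAHA for CYC1 and NDUFS3, and with HDAC2 siRNA for ATP5H, NDUFA1, NDUFAB1, SDHA, UQCRB and UQCRQ. COX6B2 was detected on at most 2 arrays of any group, NDUFB1 on 0 of 4 HDAC2 siRNA and 1 of 4 scrambled arrays of Huh7, and UQCRB on 1 of 4 scrambled arrays of HepG2, so the differences given for them include levels at background. With HDAC2 siRNA the line difference of COX6B2 ended in 18 of 26 alternatives, that of UQCRB in 15 and that of NDUFB1 in 5, and with SAHA that of CYC1 ended in 15 of 27.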

How the results depend on the processing

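Of 279 calls in 74 genes followed through the alternatives, 172 kept direction and side of the threshold throughout. Scaling arrays to one median moved most counts: with HDAC2 siRNA to 9 falling in HepG2 and 21 rising in Huh7, with SAHA to 6 rising in HepG2 and to 7 rising and 31 falling in Huh7, and for the line differences to 10 higher and 12 lower with HDAC2 siRNA and 13 lower with SAHA. Under it ATP5B (0.16) and NDUFS3 (7e-04) with HDAC2 siRNA in HepG2, NDUFB5 with SAHA in Huh7 (−0.0759) and the siRNA line differences of ATP5I (0.0527), COX5A (0.0865), COX5B (0.0671), COX6C (0.0511) and NDUFB8 (0.021) changed sign, and the mean of a gene's probes turned NDUFV3 between the controls (−0.0337), none passing the test. Of all called genes, 32.3% were then higher with SAHA in HepG2, 39.2% with SAHA in Huh7, 57.6% with HDAC2 siRNA in HepG2 and 58.2% in its line difference. The cause was not tested. With only the groups compared, 7 rose and 11 fell with HDAC2 siRNA in HepG2. With all detected probes tested singly, 8 of 80 probes fell with HDAC2 siRNA in Huh7. The siRNA line difference had 3 higher subunits with no background correction, with the authors' normalized values and with probes detected on all 32 arrays. With the replicate number as a block, 12 rose and 18 fell with HDAC2 siRNA in HepG2, 33 and 5 in Huh7, 15 and 22 with SAHA in HepG2 and 21 and 20 in Huh7; samples of one number correlated at −0.14 to 0.26, and own numbers best in 4 of 16.

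Leaving out each array in turn gave, with SAHA, 10 to 14 rising and 21 to 23 falling in HepG2, and 16 to 22 and 18 to 21 in Huh7. With HDAC2 siRNA it gave 8 to 14 and 14 to 19 in HepG2, and 31 to 33 and 4 to 6 in Huh7. Line differences had 5 to 10 higher and 17 to 22 lower with SAHA (5 without SAHA replicate 2 of HepG2), and 4 to 6 and 27 to 34 with HDAC2 siRNA. The controls gave 22 to 26 and 26 to 28. The slide as a block was not run, since the headers used give no slide, and normalization within 1 line gives no value between the controls. Dim probes limit NDUFB1, UQCRB, COX6B2 and NDUFS1, at or near the lowest detected signal.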
